A study of Mus musculus with 4 samples.

Results

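The 46 genes described here encode ATP-dependent chromatin remodellers and their partner subunits, chosen by name and grouped by complex: the CHD family, NuRD, SWI/SNF, ISWI, INO80 and SWR1-type ATPases, and a few solitary SNF2-type ATPases. All 46 were among the 55353 gene symbols of the count table, and all 46 were among the 17482 genes with enough counts to be tested. Ribosomal-RNA-depleted total RNA was sequenced from E14, a line of mouse embryonic stem cells that needs no feeder layer and whose strain is labelled 12910la. The control group was 2 libraries of wild-type cells, and the other group was 2 libraries of cells in which Ssrp1, a subunit gene of the histone chaperone FACT, had been targeted with Cas9 and a guide RNA. Both groups were grown in serum with LIF on gelatin, and the protocol shared by all 4 samples also describes transfection of wild-type cells with a pSuper puro vector and puromycin selection, without saying which libraries this concerned. The labels give neither the number of knockout clones nor the origin of the 2 libraries of each group in 1 culture or 2, so p-values measure only the spread between these libraries, which may be technical.

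Remodellers use ATP to slide, evict, space or exchange nucleosomes, and each ATPase works with subunits that set where the complex binds. SWI/SNF (BAF) complexes open chromatin, ISWI complexes space nucleosomes, NuRD couples a CHD ATPase to histone deacetylases, and INO80 and SWR1-type complexes exchange the variant H2A.Z. In embryonic stem cells, a form of BAF built on Smarca4 (Brg1), Smarcc1 and Arid1a, the NuRD subunit Mbd3, Chd1 and the Tip60-p400 ATPase Ep400 are each known for roles in self-renewal or in leaving it.

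Library totals ranged from 22611434 to 25344190 counts. Gm26917 and Gm42418, which resemble ribosomal RNA, took 9.72% to 10.3% of the counts in controls and 4.64% to 6.30% in the other libraries. Ssrp1 itself was at 282.2 and 305.7 CPM (counts per 1000000 counts after scaling of the library sizes) in controls and at 305.5 and 327.3 CPM in the other 2, an adjusted p of 0.23 by edgeR, so its transcript level does not check the labels and those 2 are called the knockout-labelled libraries. It was called higher with library sizes alone and without knockout replicate 1. Supt16, the FACT partner, was at 891.4 ± 12.8 and 1015.0 ± 54.1 CPM (SD, n = 2; edgeR adjusted p 0.018, lost when either control was left out). Of the embryonic stem cell markers, 7 of 10 fell and 2 rose, Pou5f1 from 408.4 to 316.3 CPM (edgeR adjusted p 9.3e-05), while their summed level was 4968 to 5132 CPM in controls and 3940 to 4008 CPM in the knockout-labelled libraries. Nanog and Sox2 were called in opposite directions by small amounts (log2 fold changes 0.17 and -0.21), and both calls were lost when either control was left out, that of Sox2 also without knockout replicate 2, with DESeq2 and in other alternatives. In such bulk samples, fewer cells of a type and less RNA per cell cannot be told apart.

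Transcripts of the 46 genes were higher more often than lower in the knockout-labelled libraries. Of 62 tested subunits outside the 46, given further below, 19.4% rose and 14.5% fell, near the shares of all tested genes. Of the 46 genes 21 rose (45.7%) and 6 fell (13.0%), where 16.5% of all tested genes rose and 17.2% fell at an adjusted p under 0.05 (edgeR's quasi-likelihood test with Benjamini-Hochberg adjustment over all tested genes). Most of the changes were small: 5 of the 46 genes were called with a change of at least 1.5-fold (14.9% of all tested genes were), namely Baz1a upward and Chd2, Chd3, Chd5 and Smarcd3 downward, and 9 of the 27 called genes changed by less than 1.2-fold. The median log2 fold change was 0.16 over the 46 genes and 0.00 over all tested genes, and 35 of the 46 had a value above 0. In 35 of the 46 (76.1%) all libraries of one group were above all of the other, as in 66.6% of all tested genes.

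These genes are expressed at higher levels and are longer than most, so they were also set beside genes of like level or length. Among the 9138 tested genes with a mean of at least 10 CPM, a level reached by 44 of the 46, 19.5% rose and 23.4% fell (42.9% in either direction), 8.96% were called with a change of at least 1.5-fold, 73.1% had groups that did not overlap, and the median log2 fold change was -0.02. The median exon length was 7974 bases for the 46 genes and 3720 bases for all tested genes, and 34 of the 46 were among the 4281 tested genes with the longest exons, of which 19.9% rose and 23.4% fell. Together the 46 genes summed to 8297 to 8339 CPM in controls and 9033 to 9435 CPM in the knockout-labelled libraries. Their share of the unscaled counts, which include the genes that resemble ribosomal RNA, was 0.806% to 0.809% and 0.924% to 0.975%.

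**Figure D1:**
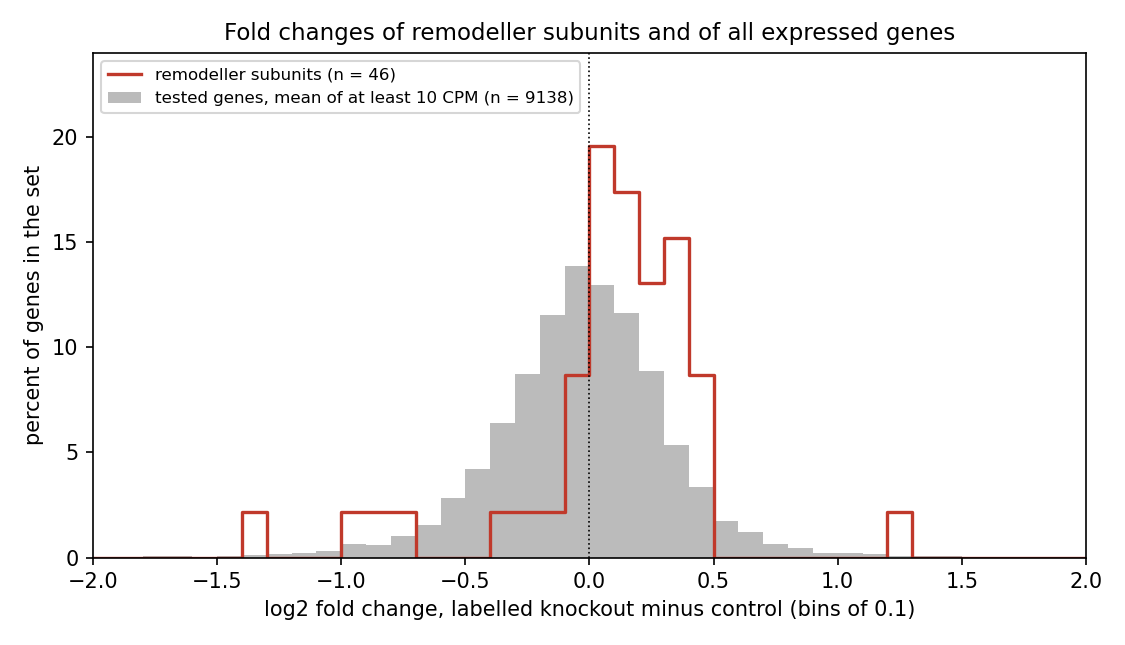
Distribution of log2 fold changes (x axis, labelled knockout minus control, bins of 0.1) as the percent of genes in each set (y axis). Grey bars are the 9138 tested genes with a mean of at least 10 CPM and the red line is the 46 remodeller genes, of which 35 lie above 0 and most between 0 and 0.5.

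When 1 control was left out, spread was estimated from the 2 knockout-labelled libraries alone. These differed more from each other than the controls did (chi-square 11.5 and 3.37 per degree of freedom). The median log2 fold change of the 46 was 0.12 without control 1 and 0.16 without control 2. Fewer rises were called in either fit. Without control 1 the number was 10 of 46, where 10.3% of all tested genes rose, and without control 2 it was also 10, where 11% of all tested genes rose. The rises of Chd1, Chd8, Smarca5, Arid1a, Arid2, Bptf, Smarcad1 and Baz1a and the falls of Chd2, Chd3, Chd5, Smarcd3 and Smarcc1 were called without any single library, under every scaling and low-count filter run and with DESeq2. Baz1a, Arid1a, Bptf, Smarcad1, Chd2, Chd3, Chd5 and Smarcd3 were also called when the test asked for a change of more than 1.2-fold.

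**Figure D2:**
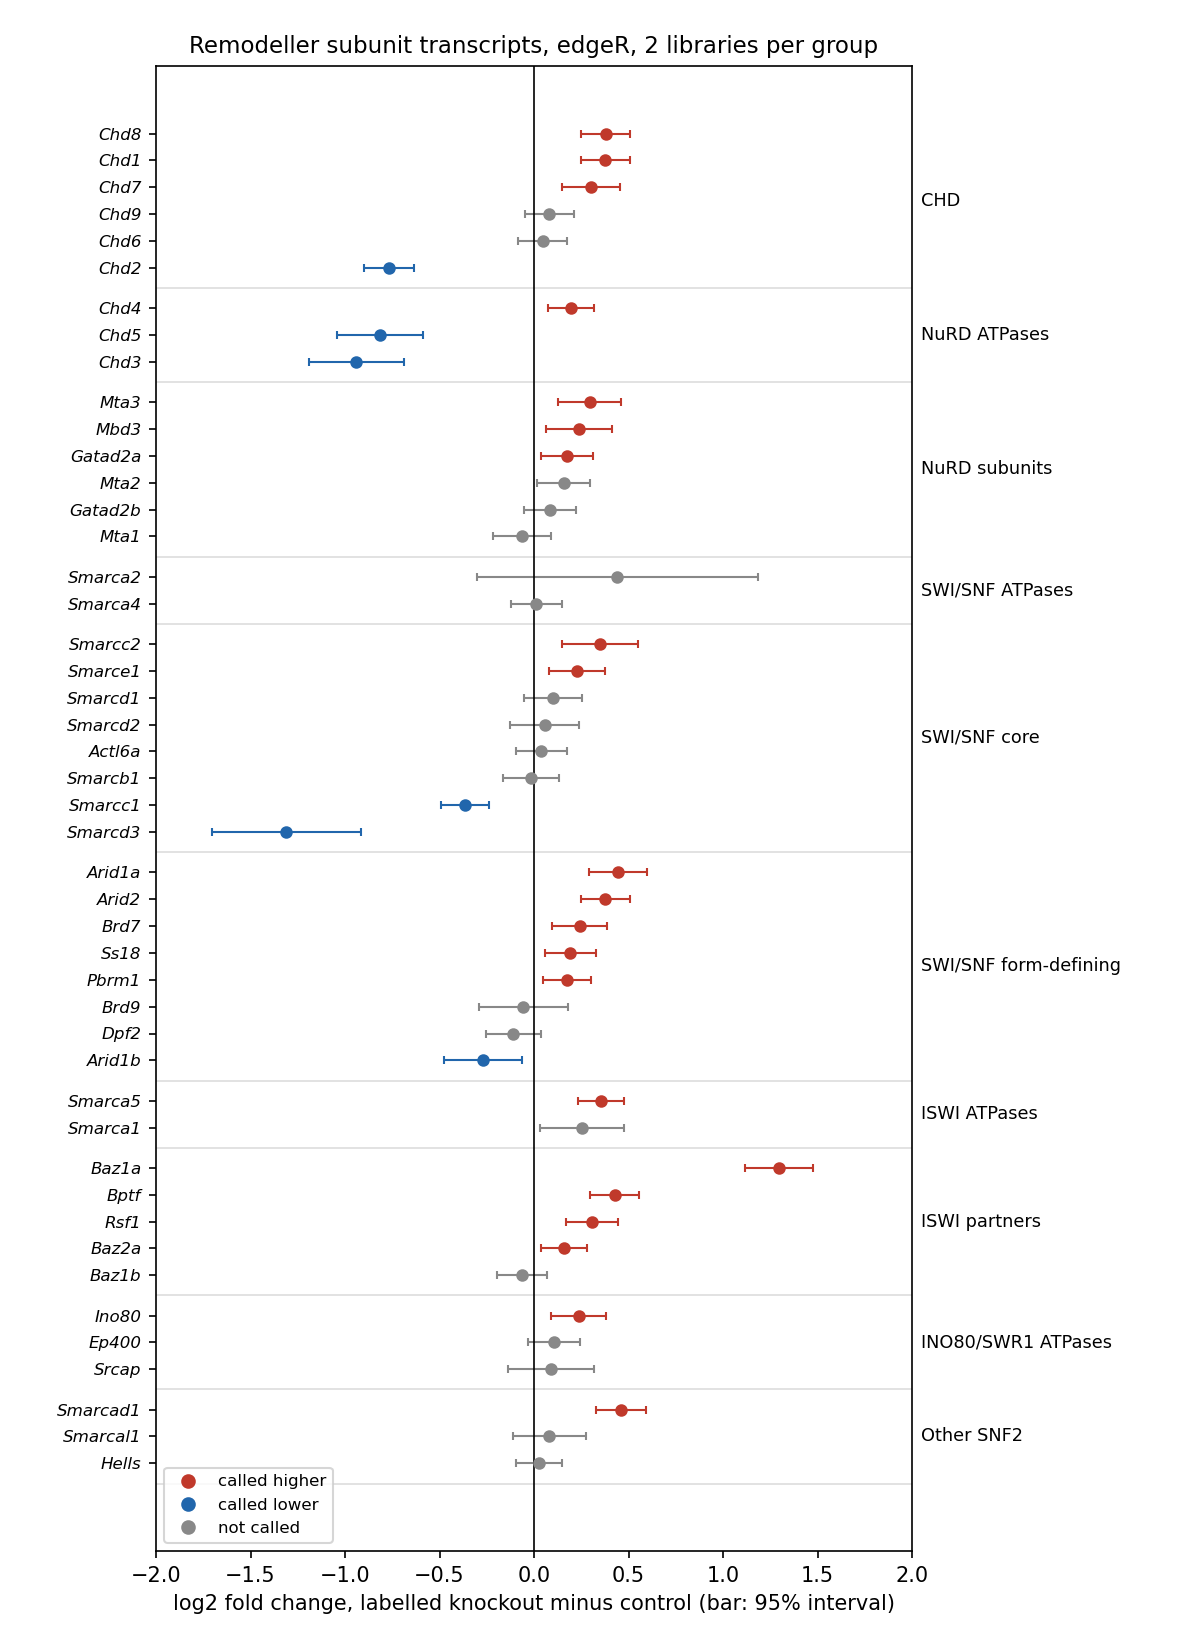
Log2 fold change of each of the 46 remodeller genes (x axis, labelled knockout minus control) with its 95% interval (bar), grouped by complex on the y axis and coloured by edgeR call. The 21 rises are shifts of under 0.5 except Baz1a at 1.29, and the largest falls are Smarcd3, Chd3, Chd5 and Chd2.

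Promoter sequence was available in RefSeq (GRCm38.p6) for 36 of the 46 genes; Chd1, Chd2, Chd3, Chd7, Mta3, Smarce1, Ss18, Arid2, Baz1a and Rsf1 had no entry. Shown here are the bases just upstream of the transcription start for the genes called under every alternative that had an entry and a start outside the body of a longer annotated transcript. They let the promoters of 3 genes that rose be set beside 1 that fell. Capitals mark the GC box (GGGCGG on either strand) and the E-box (CACGTG).
Arid1a (rose; chr4:133756770-133757019, minus strand): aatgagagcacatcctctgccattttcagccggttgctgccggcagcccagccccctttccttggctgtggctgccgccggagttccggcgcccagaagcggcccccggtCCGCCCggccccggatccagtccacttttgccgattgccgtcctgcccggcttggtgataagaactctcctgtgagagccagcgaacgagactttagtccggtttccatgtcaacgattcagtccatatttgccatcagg
Bptf (rose; chr11:107132148-107132397, minus strand): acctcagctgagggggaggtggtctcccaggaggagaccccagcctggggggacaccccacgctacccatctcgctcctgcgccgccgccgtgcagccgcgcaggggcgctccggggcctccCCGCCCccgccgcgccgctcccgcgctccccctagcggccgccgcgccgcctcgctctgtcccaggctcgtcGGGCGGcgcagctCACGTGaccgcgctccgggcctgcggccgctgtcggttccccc
Smarcad1 (rose; chr6:65042341-65042582, plus strand): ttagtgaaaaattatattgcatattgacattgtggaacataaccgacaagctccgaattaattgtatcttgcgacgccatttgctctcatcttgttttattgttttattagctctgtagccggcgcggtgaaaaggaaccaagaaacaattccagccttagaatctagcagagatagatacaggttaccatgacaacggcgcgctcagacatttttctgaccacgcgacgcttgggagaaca
Chd5 (fell; chr4:152338401-152338650, plus strand): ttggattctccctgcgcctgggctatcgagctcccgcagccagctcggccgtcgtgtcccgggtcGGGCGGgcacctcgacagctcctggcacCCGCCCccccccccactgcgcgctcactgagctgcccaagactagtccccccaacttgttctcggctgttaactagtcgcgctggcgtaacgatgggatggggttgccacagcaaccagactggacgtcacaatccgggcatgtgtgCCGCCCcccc
The windows differed widely in base composition, with 61.2% G or C for Arid1a, 79.2% for Bptf, 42.1% for Smarcad1 and 67.2% for Chd5. Arid1a held 1 GC box, Bptf 2 and an E-box, Chd5 3 and Smarcad1 0.

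Over the 250 bases before the most upstream start, the 36 promoters had a median of 65.2% G or C, against 59.6% for 11491 promoters of tested genes and 52.0% for all 27025. A GC box was found in 32 of the 36 (88.9%), in 58.7% of promoters of tested genes and in 33.0% of all promoters. It was present in 10 of 13 promoters of genes that rose, 4 of 4 of genes that fell and 18 of 19 of genes not called. The same search on both strands for the CCAAT box (CCAAT) found it in 10 of the 36 (27.8%; 37.2% of tested genes, 34.5% of all), the ETS motif (CCGGAAG) in 4 (11.1%; 13.4% and 7.07%), the E-box in 2 (5.56%; 8.35% and 6.04%), the TATA box (TATAAA) in 2 (5.56%; 6.40% and 13.0%), the octamer (ATTTGCAT) in 2 (5.56%; 1.40% and 1.62%), the NRF1 core (GCGCATGC) in 3 (8.33%; 4.41% and 2.31%) and the CRE (TGACGTCA) in 0 (2.68% and 1.6%). None of these motifs contains another. A match is a run of letters and not a shown binding site.

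Among ISWI genes 5 of 7 rose (71.4%, against 16.5% of all tested genes) and 0 fell. They held the largest rise of the 46, while of 4 ISWI subunits outside the 46, 1 rose and 1 fell. Baz1a encodes ACF1, the accessory subunit that pairs with the ATPase Smarca5 (SNF2H) in the ACF and CHRAC nucleosome-spacing complexes. Baz1a (chromosome 12, 54892989 to 55014348, mm10, minus strand) was at 24.9 and 24.2 CPM in controls and at 59.4 and 61.1 CPM in the knockout-labelled libraries. Every library of one group was thus well apart from the other, and the fold was 2.45 (95% interval 2.16 to 2.78; edgeR adjusted p 6.6e-10). The 10 tested genes nearest to Baz1a, 5 on each side, included 2 that rose and 0 that fell, with log2 fold changes from -1.25 to 0.35 and a median of -0.02.

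The ATPase itself, Smarca5, was at 556.2 and 554.8 CPM in controls and at 700.1 and 719.3 CPM in the knockout-labelled libraries, a log2 fold change of 0.35 ± 0.06 (SE, n = 2 per group; edgeR adjusted p 8.6e-05). Its paralogue Smarca1 (SNF2L), the ATPase more typical of neural tissue, was far less abundant, at 22.3 and 26.7 CPM against 29.2 and 29.3 CPM. The Smarca1 groups did not overlap, but the difference missed the threshold (log2 fold change 0.25, 95% interval 0.03 to 0.48, edgeR adjusted p 0.076); it was called with library sizes alone and without control 2. Per kilobase of exon, Smarca5 was 19.6 and 16.3 times Smarca1 in controls and 18.9 and 19.3 times in the knockout-labelled libraries, so these ratios overlapped.

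Bptf, the reader subunit of the NURF complex, was at 269.0 and 262.1 CPM in controls and at 344.5 and 369.0 CPM in the knockout-labelled libraries (log2 fold change 0.43 ± 0.06, edgeR adjusted p 2.7e-05). Rsf1, the partner of Smarca5 in the RSF complex, went from 131.3 and 138.2 to 171.5 and 162.4 CPM (0.31 ± 0.07, adjusted p 0.0011, and 0.061 without control 1). Baz2a (TIP5), which directs the NoRC complex to ribosomal DNA, rose by only 1.12-fold to 798.6 ± 14.8 CPM, a call lost when either control was left out (adjusted p 0.44 and 0.16). Baz1b (WSTF), the closest relative of Baz1a, was at 231.7 and 229.1 CPM in controls and 211.7 and 229.2 CPM in the knockout-labelled libraries (log2 fold change -0.06, interval -0.20 to 0.07, adjusted p 0.48). Baz1b was 4.88 and 4.96 times Baz1a per kilobase of exon in controls and 1.87 and 1.97 times in the knockout-labelled libraries. With 2 libraries a group, the smallest p an exact 2-sided permutation test of such a ratio can give is 0.33, so ratios are given as values only.

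**Figure D3:**
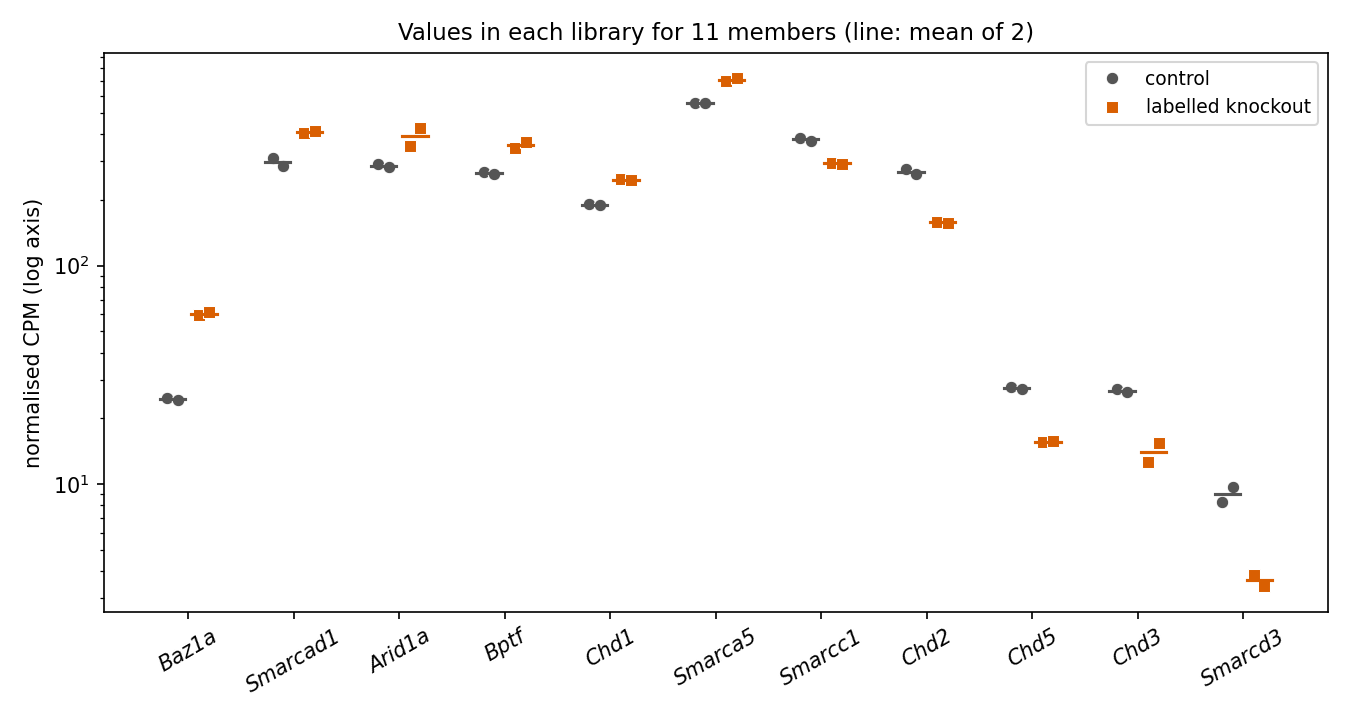
Normalised CPM in each library (log axis) for 11 remodeller genes, with a line at the mean of each group of 2. The 11 were picked from the genes called by edgeR. The groups do not overlap for any of the 11, as for 66.6% of all tested genes. Baz1a has the widest upward gap, and Smarcd3, Chd3, Chd5 and Chd2 the widest downward gaps.

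In NuRD, the abundant ATPase gene rose slightly and its 2 minor relatives fell. Chd4 (Mi-2beta), the main ATPase of the complex in these cells, went from 626.7 and 646.6 to 718.6 and 741.2 CPM (log2 fold change 0.20 ± 0.06, edgeR adjusted p 0.012), and the call was lost when either control was left out. Chd3 (Mi-2alpha) was at 27.2 and 26.5 CPM in controls and at 12.6 and 15.4 CPM in the knockout-labelled libraries. Chd5, known as a neuronal and testis NuRD ATPase, was at 27.7 and 27.4 CPM against 15.6 and 15.8 CPM. For both the libraries of the groups were well apart, with log2 fold changes of -0.94 ± 0.12 for Chd3 (edgeR adjusted p 4.8e-06) and -0.81 ± 0.11 for Chd5 (adjusted p 8.6e-06). Of the 10 tested genes nearest to Chd5 0 rose and 3 fell (median log2 fold change -0.09), and of those nearest to Chd3 1 rose and 1 fell (median -0.35).

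Chd4 made up most of the NuRD ATPase transcript level in every library. Per kilobase of exon, Chd4 supplied 92.8% and 93.1% of the summed Chd3, Chd4 and Chd5 level in controls and 96.6% and 96.4% in the knockout-labelled libraries. The Chd4 to Chd3 ratio was 24.3 and 25.7 in controls and 60.2 and 50.7 in the knockout-labelled libraries, and the Chd4 to Chd5 ratio was 27.0 and 28.2 against 55.1 and 56.2. Markers of neural cells moved in the same libraries: 4 of 7 tested fell and 1 rose, Ncam1 from 84.5 to 16.0 CPM (edgeR adjusted p 2.2e-13), while the summed level of all 10 was 172.3 to 180.0 CPM in controls and 95.8 to 100.2 CPM in the knockout-labelled libraries. Most of the drop in the sum over this list came from Ncam1 alone. Of that list Dcx had no count in any library and Neurog2 none in the controls; the part of such transcripts in the falls of Chd3 and Chd5 was not tested.

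Of the 6 other NuRD members, 3 rose (50%, against 16.5% of all tested genes) and 0 fell. Mta3, a zinc-finger subunit, rose from 45.1 ± 0.42 to 55.4 ± 1.99 CPM (SD, n = 2), Mbd3, the methyl-binding-domain subunit that holds NuRD together in embryonic stem cells, from 49.9 ± 0.87 to 58.9 ± 6.15 CPM, and Gatad2a, a bridging subunit, from 254.8 ± 7.85 to 287.6 ± 20.8 CPM. All 3 calls were lost when either control was left out, and those of Mbd3 and Gatad2a also with DESeq2 (adjusted p 0.081 and 0.064) and without knockout replicate 2. Mta1, Mta2 and Gatad2b had log2 fold changes of -0.06, 0.16 and 0.08 and were not called, although Mta2 was called with library sizes alone, with a stricter count filter and without knockout replicate 2, and Gatad2b without knockout replicate 1. Mbd3 was 6.34 to 7.93 times Mbd2, its mutually exclusive relative, per kilobase of exon in controls and 6.75 to 7.67 times in the knockout-labelled libraries.

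NuRD subunits outside the 46, from a list of 6, also had 3 rises and 0 falls. The deacetylase gene Hdac1 had the clearest difference, at 131.9 and 131.8 CPM in controls and 174.7 and 205.6 CPM in the knockout-labelled libraries (log2 fold change 0.53 ± 0.07, edgeR adjusted p 1.4e-05). The histone-binding subunit gene Rbbp7 rose from 406.3 to 475.5 CPM, a call lost when either control was left out, and Cdk2ap1 from 39.2 to 50.5 CPM, a call lost without control 1.

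Of the 18 SWI/SNF genes 7 rose (38.9%, against 16.5% of all tested genes) and 3 fell (16.7%, near the 17.2% of all tested genes). The ATPase Smarca4 (Brg1) was at 232.5 and 243.3 CPM in controls and 232.0 and 248.0 CPM in the knockout-labelled libraries. These values overlapped, and the 95% interval of the fold was 0.919 to 1.11 (edgeR adjusted p 0.90). Smarca2 (Brm), the alternative ATPase of differentiated cells, was barely detected, with 29 and 35 counts in controls and 50 and 38 in the knockout-labelled libraries; its interval, 0.812 to 2.27 for the fold, leaves room for a change of more than 2-fold (adjusted p 0.37). Smarca4 made up 99.6% to 99.7% of the summed level of both ATPases per kilobase of exon across the 4 libraries.

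The core subunits of SWI/SNF differed by paralogue. Smarcc1 (BAF155), the scaffold typical of the embryonic stem cell form, fell from 385.4 and 372.0 to 295.5 and 293.4 CPM (log2 fold change -0.36 ± 0.06, edgeR adjusted p 1.0e-04), while Smarcc2 (BAF170), the paralogue that gains ground on differentiation, went from 28.3 and 26.7 to 36.2 and 33.8 CPM (0.35 ± 0.10, adjusted p 0.0081, lost without control 2 at 0.11). Smarcc1 transcripts remained more abundant than those of Smarcc2. The ratio of Smarcc1 to Smarcc2 per kilobase of exon was 9.66 and 9.89 in controls and 5.79 and 6.15 in the knockout-labelled libraries.

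Smarcd3 (BAF60c), a variant of heart, muscle and neurons, had the largest fall of the 46. It was at 8.30 and 9.68 CPM in controls and at 3.85 and 3.40 CPM in the knockout-labelled libraries, a fold of 0.403 (95% interval 0.307 to 0.529; edgeR adjusted p 2.0e-05), and the groups were clearly apart. Of its 5120 exon bases (chromosome 5, 24590818 to 24624411, mm10, minus strand) 50.1% are shared with genes on the opposite strand, mainly Chpf2. Chpf2 fell too, from 7.12 and 7.92 to 4.75 and 3.45 CPM (log2 fold change -0.88, adjusted p 0.0019), and whether counting used strand is not stated. Of the 10 tested genes nearest to Smarcd3, Chpf2 among them, 1 rose and 4 fell, with a median log2 fold change of -0.36. The more abundant Smarcd1 (BAF60a) and Smarcd2 (BAF60b) were not called, at log2 fold changes of 0.10 and 0.06, although Smarcd1 was without knockout replicate 1, and the Smarcd3 share of the summed level of the 3 paralogues per kilobase of exon was 3.41% and 3.80% in controls and 1.55% and 1.27% in the knockout-labelled libraries. Smarce1 (BAF57) rose from 76.1 ± 0.15 to 89.2 ± 4.81 CPM, a call lost when either control or knockout replicate 2 was left out, and Smarcb1 (log2 fold change -0.01) and Actl6a (0.04) were not called.

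The subunits that distinguish one SWI/SNF form from another included 5 rises and 1 fall among 8. These are 62.5% and 12.5%, against 16.5% and 17.2% of all tested genes. Arid1a, the ARID subunit of canonical BAF, was at 290.5 and 283.0 CPM in controls and at 353.9 and 426.4 CPM in the knockout-labelled libraries (log2 fold change 0.44 ± 0.07, edgeR adjusted p 1.0e-04). The knockout-labelled libraries lay further from each other than the lower of them did from the higher control. Without knockout replicate 2 the log2 fold change was 0.30 and without knockout replicate 1 it was 0.57. Its paralogue Arid1b was at 35.1 and 39.0 CPM in controls and 28.7 and 32.7 CPM in the knockout-labelled libraries, and its call (-0.27 ± 0.10, adjusted p 0.040) was lost with library sizes alone, with DESeq2, without control 2 and without knockout replicate 1. Arid1a was 9.09 and 7.97 times Arid1b per kilobase of exon in controls and 13.5 and 14.3 times in the knockout-labelled libraries.

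Arid2, Pbrm1 and Brd7, which mark the PBAF form, rose, while Phf10, a PBAF subunit outside the 46 that was looked up after the values were seen, was not called (log2 fold change -0.08, edgeR adjusted p 0.42). Arid2, its ARID subunit, went from 151.5 and 150.9 to 194.2 and 198.8 CPM (log2 fold change 0.38 ± 0.06, edgeR adjusted p 1.1e-04). Pbrm1, its polybromo subunit, rose from 249.6 ± 0.15 to 282.0 ± 5.11 CPM and the bromodomain gene Brd7 from 80.2 ± 2.25 to 94.8 ± 3.18 CPM, and both calls were lost when either control was left out. Ss18, of canonical and non-canonical BAF, rose from 151.3 ± 5.96 to 172.9 ± 0.47 CPM with the same loss. Dpf2, of canonical BAF, and Brd9, which marks the non-canonical form, were not called, at log2 fold changes of -0.11 and -0.06. Of 12 tested SWI/SNF subunits outside the 46, 1 rose and 1 fell: Bcl7c from 27.9 to 34.7 CPM and Bcl11b, a zinc-finger subunit, from 5.53 and 3.14 to 1.97 and 2.65 CPM, and both calls were lost with DESeq2 and without control 1. The neuronal subunit gene Actl6b had at most 0.091 CPM in any library and was not tested.

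**Figure D4:**
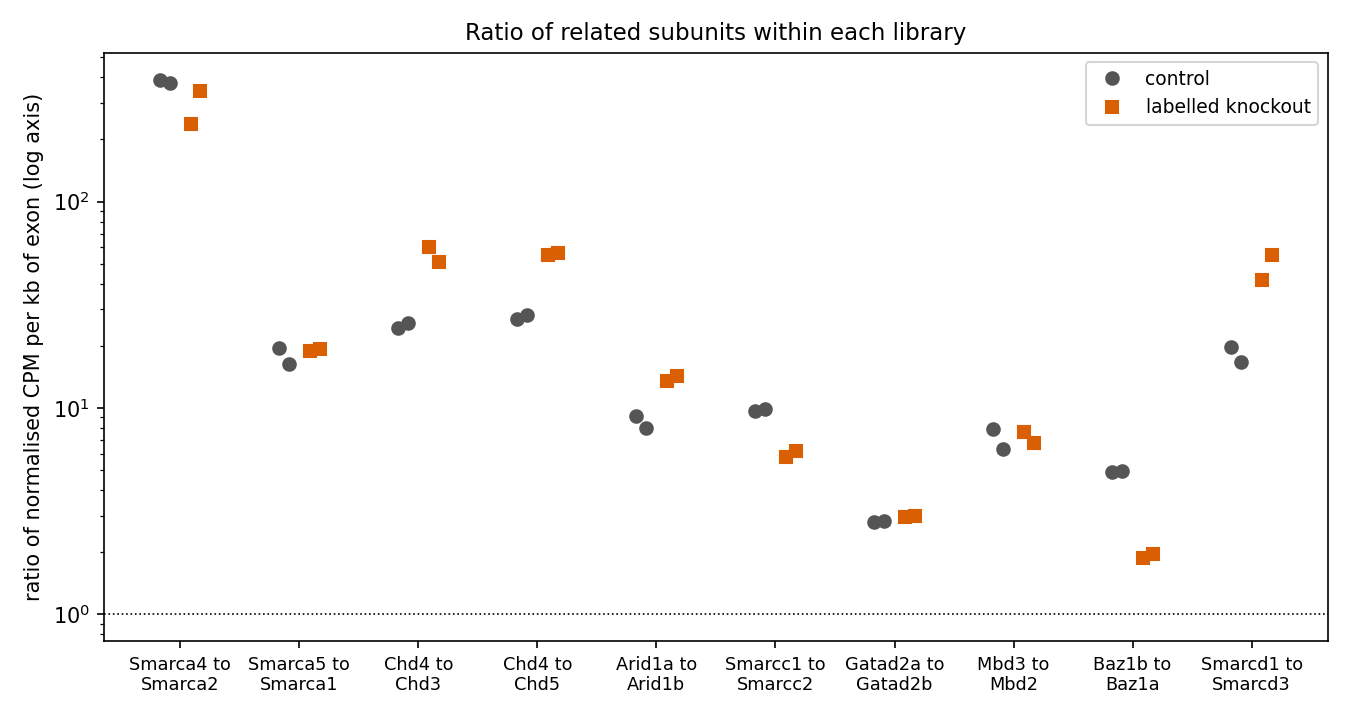
Ratio of normalised CPM per kilobase of exon (log axis) between related subunits within each of the 4 libraries; circles are controls and squares are libraries labelled knockout. The ratios of Chd4 to Chd3, Chd4 to Chd5, Arid1a to Arid1b and Smarcd1 to Smarcd3 are higher in both libraries labelled knockout. That of Gatad2a to Gatad2b is slightly higher in both. Those of Smarcc1 to Smarcc2 and Baz1b to Baz1a are lower, as is that of Smarca4 to Smarca2, which rests on few Smarca2 counts. Those of Smarca5 to Smarca1 and Mbd3 to Mbd2 overlap.

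Of the CHD genes outside NuRD 3 of 6 rose (50%, against 16.5% of all tested genes) and 1 fell (16.7%, near the 17.2% of all tested genes). Chd2, a remodeller that marks active genes and is linked to deposition of histone H3.3, was at 275.7 and 262.0 CPM in controls and at 158.6 and 157.4 CPM in the knockout-labelled libraries. The gap between groups was wider than the spread within either, and the fold was 0.588 (95% interval 0.536 to 0.644; edgeR adjusted p 1.7e-08). Chd2 (chromosome 7, 73426638 to 73541830, mm10, minus strand) shares 2628 of its 14300 exon bases with 1810026B05Rik, a gene on the same strand that is also known as the Chaserr noncoding RNA. That gene went the other way, from 37.8 and 33.0 to 41.2 and 40.8 CPM, without being called (log2 fold change 0.21, adjusted p 0.083). Of the 10 tested genes nearest to Chd2, 1810026B05Rik among them, 2 rose and 1 fell. Their log2 fold changes ran from -0.81 to 8.37, with a median of -0.27. The 2 that rose had 0 counts in controls and 14 to 42 counts in the knockout-labelled libraries.

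Chd1, the closest paralogue of Chd2, is required for the open chromatin of embryonic stem cells. It was at 191.5 and 188.6 CPM in controls and at 248.4 and 245.6 CPM in the knockout-labelled libraries (log2 fold change 0.38 ± 0.06, edgeR adjusted p 8.6e-05). Chd8, which binds beta-catenin and active promoters, rose by the same amount, from 234.9 and 232.9 to 295.3 and 312.8 CPM (adjusted p 9.1e-05). Chd7, the gene mutated in CHARGE syndrome, rose from 75.7 and 72.7 to 86.5 and 96.3 CPM, a call lost without control 2 (adjusted p 0.070). Chd6 and Chd9 were not called (Chd9 was with library sizes alone), with 95% intervals of 0.943 to 1.13 and 0.968 to 1.16 for the fold.

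Of the INO80 and SWR1-type ATPases 1 of 3 rose (33.3%, against 16.5% of all tested genes) and 0 fell. Ino80 was at 143.0 and 142.0 CPM in controls and at 157.0 and 178.6 CPM in the knockout-labelled libraries (log2 fold change 0.24 ± 0.07, edgeR adjusted p 0.013), and the call was lost when either control was left out and without knockout replicate 2. Ep400 and Srcap, which exchange H2A for H2A.Z, had log2 fold changes of 0.11 (95% interval -0.03 to 0.25) and 0.09 (-0.14 to 0.32). Ep400 was called with library sizes alone and without knockout replicate 1, and 66.9% of the exon bases of Srcap are shared with other annotated genes, so its count is uncertain. Of 13 other INO80 subunits 4 rose and 2 fell, among them Ino80e from 61.3 to 83.3 CPM, Ino80c from 13.7 to 19.7 CPM and the transcription factor gene Yy1 from 90.7 to 117.7 CPM. Of 15 other SRCAP and TIP60 subunits 2 rose and 2 fell, including Morf4l2 (298.6 to 351.9 CPM), Ing3 (34.8 to 27.6 CPM) and the acetyltransferase gene Kat5 (47.6 to 39.1 CPM), whose calls were lost when control 2 was left out and, for Morf4l2 and Kat5, also when control 1 was.

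Among the solitary ATPases, Smarcad1, which acts in heterochromatin maintenance and in silencing of endogenous retroviruses, rose and the other two were not called. Smarcad1 was at 310.4 and 285.9 CPM in controls and at 405.0 and 415.3 CPM in the knockout-labelled libraries, a log2 fold change of 0.46 ± 0.06 (edgeR adjusted p 1.1e-05). Hells (LSH), which supports DNA methylation at repeats, was the most abundant of the 46 per kilobase of exon, at 699.6 and 693.4 CPM in controls and 686.3 and 733.4 CPM in the knockout-labelled libraries, with a 95% interval of 0.936 to 1.11 for the fold. Smarcal1, a fork-remodelling annealing helicase, had a log2 fold change of 0.08 (adjusted p 0.54). From a list of 12 further SNF2-family ATPases 1 rose and 3 fell. The rise was of Atrx, which loads H3.3 at repeats, from 359.5 and 357.4 to 585.8 and 622.9 CPM (log2 fold change 0.75 ± 0.06, adjusted p 1.1e-08). The falls included Ttf2, a transcription termination factor, from 143.7 to 109.4 CPM and Ercc6l2 from 141.1 to 119.5 CPM, a call lost when either control was left out and with library sizes alone.

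Over all 62 tested subunits outside the 46, 12 rose (19.4%) and 9 fell (14.5%), with a median log2 fold change of 0.00, shares near those of all tested genes. Among the ISWI partners of this list, Cecr2 rose from 329.2 to 406.1 CPM and Baz2b fell from 59.6 to 46.1 CPM. Among the 46, ATPases and their partners were counted separately, beside the 16.5% of all tested genes that rose and the 17.2% that fell. Of 19 ATPases 7 rose (36.8%) and 3 fell (15.8%), and of 27 other subunits 14 rose (51.9%) and 3 fell (11.1%). Neither contrast was tested. Markers of other cells moved in different directions. Those of primitive endoderm (8 genes, 6 higher and 0 lower of 7 tested) summed to 24.95 to 26.3 CPM in controls and 67.3 to 67.6 CPM, Col4a1 going from 15.1 to 34.2 CPM. Those of the 2-cell-like state (10 genes, 9 higher of 9 tested) summed to 25.9 to 31.7 CPM and 129.4 to 130.6 CPM, Gm21761 going from 0.15 to 31.3 CPM. Dppa2 alone made up most of the control sums, at 30.9 and 25.5 CPM, and was at 47.8 and 52.3 CPM in the knockout-labelled libraries. Of 5 tested fibroblast markers 0 rose and 2 fell, Vim from 111.2 to 69.6 CPM, Prrx1 had no count in any library, and the list summed to 2253 to 2282 CPM in controls and 1846 to 1933 CPM. Fn1 alone made up most of that sum, at a mean of 2137 CPM in controls and 1802 CPM in the knockout-labelled libraries. The part of these cells or states in the remodeller values was not tested.

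Of the 19 genes that were not called, 18 had a 95% interval of the fold that lay within 0.818 to 1.39. The exception was Smarca2, with its low counts. Levels per kilobase of exon allow only a rough comparison between genes, as the lengths are the union of all annotated exons. These levels spanned from 0.096 CPM per kilobase for Smarca2 to 96.7 for Hells in controls, with a median of 15.7. After Hells came Chd4 (79.4), Smarca5 (71.4), Baz2a (66.7) and Smarcc1 (48.4). Baz1a ranked 40 of 46 in controls and 35 of 46 in the knockout-labelled libraries.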

How the data were processed

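The authors deposited 1 table of raw counts per gene symbol for 4 libraries. Per the submitters' processing notes, reads went through cutadapt, HISAT2 and featureCounts on mm10. Tool versions, annotation release, strand setting and handling of multi-mapping reads were not given in the sources used here. Column names spell KO as OK and were otherwise matched to the sample titles, which left 0 columns unmapped.

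From these counts, filterByExpr (minimum count 10, minimum total 15) kept 17482 genes. TMM scaling and the quasi-likelihood F test of edgeR 4.0.16, run in R 4.3.3, followed, 2-sided and without covariates, at a prior count of 0.125; the design leaves 2 residual degrees of freedom. Adjusted p-values are Benjamini-Hochberg values over the 17482 genes, with calls made under 0.05. CPM are counts per 1000000 of TMM-scaled library size, which removes differences in depth but assumes that most genes did not change. Standard errors are the log2 fold change divided by the square root of F, and 95% intervals use the test's total degrees of freedom. A control pair and a knockout pair of libraries differed by more than counting noise (chi-square 3.37 and 11.5 per degree of freedom over genes with at least 20 counts), so neither is 1 library deposited again. Standard errors grew as counts fell, from 0.058 for Chd4 to 0.36 for Smarca2; no molecular identifiers are described.

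Positions, exon lengths (union of exons) and overlaps came from GENCODE M21 (mm10); the authors' lengths may differ. The members, lists of other subunits and markers, tests and alternatives were chosen with earlier results of these data known, and the ratios of Chd4 to Chd5, Baz1b to Baz1a and Smarcd1 to Smarcd3 after the values were seen. Named are all 46 members and the 3 called genes with the smallest adjusted p per list of other subunits. Also named are Pou5f1, Nanog, Sox2, 1 marker per other list, Ssrp1 and Supt16. Chpf2, 1810026B05Rik, Actl6b, Mbd2, Dppa2, Fn1 and markers without counts are named beside a result they touch. The fits were tested on simulated data. Alternatives were RLE scaling, library size alone, no filter, at least 5 CPM in 2 libraries, DESeq2 1.42.0, a test against a 1.2-fold change (glmTreat), a replicate block and leaving out each library. Groups of 2 allow no test for an outlying sample. The level of 1 neural marker is not reported here.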

Additional observations from a re-analysis of the deposited data

How the results depend on the processing

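Rises and falls among the 46 genes numbered 21 and 6. With library size alone they numbered 25 and 5, the share of rises among all calls was 63.7% in place of 49%, the median log2 fold change of all tested genes was 0.087, and the other subunits had 19 rises and 5 falls. Against a change of 1.2-fold, 4 of the 46 rose and 4 fell, with 1405 rises and 1453 falls over all genes and 4 and 0 among the other subunits. Leaving out each library in turn gave 10 to 24 rises and 5 to 6 falls among the 46, 1915 to 2995 rises and 2105 to 3244 falls over all genes, and 7 to 15 rises and 3 to 11 falls among the other subunits; both counts of 10 came from leaving out a control, where the lone control is assumed to vary like the other group. DESeq2 gave 19 and 5. Replicate numbers were not shown to pair the libraries (correlation of deviations 0.0084); the fit with a replicate block gave 21 rises and 6 falls, without Baz2a (adjusted p 0.053) and with Smarca1.

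Signs changed only for genes that were not called. With library size alone the log2 fold change was 0.020 for Mta1, 0.068 for Smarcb1, 0.028 for Brd9 and 0.019 for Baz1b, and with at least 5 CPM in 2 libraries it was 0.0037 for Smarcb1. Over the fits that leave out 1 library it ranged from -0.16 to 0.022 for Mta1, -0.039 to 0.060 for Smarca4, -0.020 to 0.21 for Smarcd1, -0.061 to 0.17 for Smarcd2, -0.20 to 0.078 for Brd9, -0.018 to 0.17 for Smarcal1 and -0.023 to 0.075 for Hells. The causes were not tested.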
